A study of Homo sapiens with 4 samples.

Results

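Prostaglandin synthesis and receptor genes were examined in 4 ATAC-seq libraries of LM2 cells, a human breast cancer line derived from MDA-MB-231 that forms lung metastases more readily than its parent. ATAC-seq cuts open chromatin with a transposase, so the number of cuts in a peak measures how accessible that stretch of DNA is. The members were all peaks inside, or within 10 kb of either end of, PLA2G4A, PTGS1, PTGS2, PTGES, PTGES2, PTGES3, PTGER2, PTGER4 and HPGD. These 9 genes held 66 of the 190348 peaks in the count table, and 63 had enough counts to be tested. The 2 control libraries carried the genotype "nontargeting control" and the 2 sg1 libraries the genotype "CECR2 deletion 1", and all 4 were grown in DMEM with serum, penicillin and puromycin. Each library came from 50000 cells. The labels do not say whether the deleted cells were a single clone or a pool, nor whether the replicates came from separate cultures. The p-values therefore rest on library-to-library spread, which may be technical only.

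Prostaglandins are lipid signals made from arachidonic acid. Cytosolic phospholipase A2 (PLA2G4A) frees the acid from membranes, the cyclooxygenases (PTGS1 and PTGS2, also called COX-1 and COX-2) turn it into prostaglandin H2, and the prostaglandin E synthases (PTGES, PTGES2 and PTGES3) make prostaglandin E2 from it. Prostaglandin E2 acts on neighbouring cells and on macrophages through receptors that include EP2 (PTGER2) and EP4 (PTGER4), and 15-hydroxyprostaglandin dehydrogenase (HPGD) inactivates it. PTGS2 is the inducible cyclooxygenase, a target of inflammatory signalling that is often raised in breast tumours. CECR2 is a bromodomain protein of chromatin remodelling complexes.

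The DNA just before 4 of the start sites is printed here, because these peaks carry the start-site results: PTGS2 (lower in sg1), PTGES2 and PTGES3 (higher in sg1) and PTGER4 (the tallest start-site peak of the 9 genes and the member promoter with an NF-kB consensus match). Each run is the 250 bases before the annotated RefSeq start of GRCh38.p14, written 5′ to 3′ along the gene. Capitals mark motif matches found on either strand. The PTGS2 run lies on the minus strand at chr1:186680424-186680673, PTGES2 on the minus strand at chr9:128128441-128128690, PTGES3 on the minus strand at chr12:56688285-56688534 and PTGER4 on the plus strand at chr5:40679665-40679914.
PTGS2: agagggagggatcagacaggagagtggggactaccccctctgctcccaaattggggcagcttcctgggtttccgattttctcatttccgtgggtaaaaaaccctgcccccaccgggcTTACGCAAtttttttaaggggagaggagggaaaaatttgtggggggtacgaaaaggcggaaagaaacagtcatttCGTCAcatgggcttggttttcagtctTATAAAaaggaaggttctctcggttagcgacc
PTGES2: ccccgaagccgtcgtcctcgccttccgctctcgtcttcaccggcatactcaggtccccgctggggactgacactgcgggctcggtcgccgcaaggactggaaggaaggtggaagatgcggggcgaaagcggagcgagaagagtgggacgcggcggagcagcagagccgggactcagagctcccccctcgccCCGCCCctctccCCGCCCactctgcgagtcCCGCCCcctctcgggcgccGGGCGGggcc
PTGES3: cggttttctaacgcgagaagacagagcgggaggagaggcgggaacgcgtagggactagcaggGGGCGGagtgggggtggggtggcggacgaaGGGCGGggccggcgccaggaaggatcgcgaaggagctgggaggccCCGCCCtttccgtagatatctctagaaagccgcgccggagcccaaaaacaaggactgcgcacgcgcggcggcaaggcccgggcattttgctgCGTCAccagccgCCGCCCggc
PTGER4: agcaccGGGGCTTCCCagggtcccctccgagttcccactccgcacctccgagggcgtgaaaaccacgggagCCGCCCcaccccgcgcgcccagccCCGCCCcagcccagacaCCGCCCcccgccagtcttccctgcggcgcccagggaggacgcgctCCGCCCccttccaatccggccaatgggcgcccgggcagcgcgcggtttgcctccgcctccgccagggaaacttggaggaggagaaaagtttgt

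The motifs searched were the NF-kB consensus, the cyclic AMP response core TGACG, the AP-1 site TGANTCA, the C/EBP site TTNNGCAA, the GC box GGGCGG and the TATA box TATAAA. In PTGS2 the capitals are a C/EBP match at -133 to -126, a cyclic AMP core on the opposite strand at -58 to -54 and a TATA box at -32 to -27, counted back from the start. PTGES2 held 4 GC boxes and nothing else, while PTGES3 held 4 GC boxes and a cyclic AMP core at -21 to -17. PTGER4 held the NF-kB match at -244 to -235 and 4 GC boxes. No 2 of these matches overlapped. Among 35116 RefSeq promoters the same 250 bases held the NF-kB consensus in 5.21%, TGACG in 21.2%, TGANTCA in 6.57%, TTNNGCAA in 9.05%, GGGCGG in 42.6% and TATAAA in 10.7%. At the 5′-most start of the 9 genes the counts were 1, 4, 0, 1, 6 and 2 in that order. A match is a description of letters, and its absence from this window says nothing about the factor.

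After 109 peaks at the very start of chromosome 1 were left out, depth was 21002477 and 15561701 counts in control against 43519018 and 38924086 in sg1, a ratio of 2.25. Levels are given as CPM, counts scaled to a common library size, after TMM scaling. All 7 LM2 or mesenchymal markers had a peak within 1 kb of a gene end, from 17.2 to 85.4 CPM in control and from 19.8 to 79.6 CPM in sg1. KRT8 and KRT18 shared the same peak, and the EGFR peak passed the test as higher in sg1. The markers of other cell types were mixed: ESR1, PECAM1 and CDH5 had no such peak, CDH1 and PTPRC stayed under 1 CPM, and GATA3, CD3E, CD68 and COL1A1 had peaks that passed the test. The list ranges, as mean CPM in control and then in sg1, were 0 to 14.9 and 0 to 14.2 for 5 luminal genes, 0.861 to 48.5 and 0.469 to 33.6 for 4 haematopoietic genes, 0 to 10.1 and 0 to 12.6 for 3 endothelial genes and 0.519 to 32.3 and 1.01 to 42.3 for 3 fibroblast genes. Their part in the results was not tested. CECR2 itself had 5 tested peaks, of which 0 were lower and 1 was higher, and none lay on its annotated start. A cut made by a guide need not close chromatin, so this is no check of the deletion.

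Across the prostaglandin genes, peaks changed in both directions in the sg1 libraries. Of the 63 tested member peaks, 8 were lower and 8 were higher in sg1 by edgeR's quasi-likelihood test at a Benjamini-Hochberg adjusted p under 0.05. The background over all 184717 tested peaks was 16.8% lower and 11.5% higher, against 12.7% of the members in each direction, so these counts are near the background. In bulk libraries, a change in every cell and a change in the share of cells that are open cannot be told apart. The lower peaks lay at PLA2G4A, PTGS1, PTGS2, PTGES and HPGD, and the higher peaks at PTGS1, PTGES, PTGES2, PTGES3 and PTGER4. PTGER2 had none. The called changes ran from -1.66 to -0.22 and from 0.22 to 2.85 on the log2 scale, and 4 lower and 3 higher peaks moved over 2-fold. The filter on low counts asked for 0.334 CPM in at least 2 libraries, and 4 tested members reached it in libraries of 1 group only. By that filter alone, their groups could not overlap before TMM scaling. Of these, 1 was called lower (at HPGD) and 1 higher (at PTGS1), and the others, both at PTGES3, were not called. Without these 4, 59 tested members remained, of which 7 were lower and 7 higher (11.9% each) and 3 and 2 of those moved over 2-fold. All peaks that reached the limit in libraries of both groups were 15.9% lower and 10.5% higher. The median log2 change was 0.01 over the members and 0.02 over all tested peaks. Both sg1 libraries lay above both controls at 21 member peaks and below them at 21, where the background was 31.8% and 31.9%. The groups did not overlap at any of the 16 called peaks. This adds no support, because the calls were made on the same libraries.

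By position, 31 tested peaks lay inside the genes and off their starts, of which 6 were lower (19.4%) and 2 higher (6.45%), and their median log2 change was -0.21. Among 11 upstream peaks 1 was lower and 1 higher (9.09% each), and among 10 downstream peaks 0 were lower and 3 higher (30.0%). The higher downstream peaks include the starts of other genes, TTC33 and the long noncoding RNA LOC124902264. Over the 51 tested member peaks that overlap no start of a protein-coding gene, 7 were lower (13.7%) and 5 higher (9.80%), where the background of 107695 such peaks was 16.4% lower and 10.2% higher. These shares were not tested against each other.

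**Figure D1:**
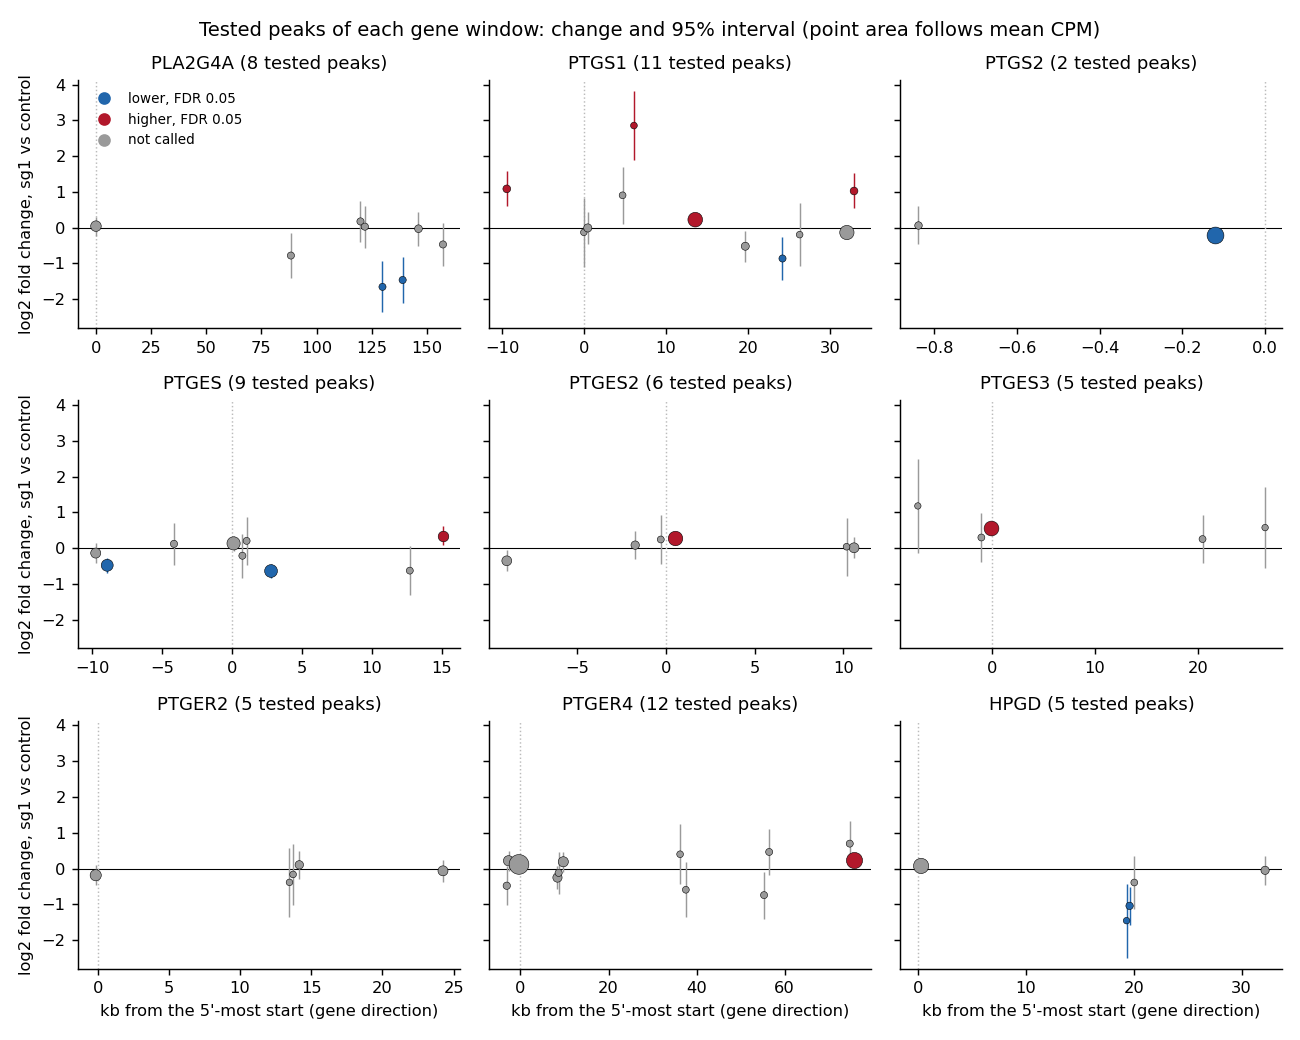
Log2 fold change of sg1 against control (vertical axis) at each tested peak, by distance in kb from the 5′-most start in the direction of the gene (horizontal axis, its range differs between panels). Bars are 95% intervals, blue and red mark peaks past the adjusted threshold, and the called peaks stand beside peaks of the same gene that did not pass, as at PTGS1, where 4 were higher and 1 lower.

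At the start sites, PTGS2 was lower, the PTGES2 and PTGES3 starts were higher, and the starts of PLA2G4A, PTGS1, PTGES, PTGER2, PTGER4 and HPGD did not pass the test. Over the tallest start-site peak of 10988 protein-coding genes the background was 7.44% lower and 32.7% higher, with a median log2 change of 0.16 against 0.11 for the 9 members. In control cells the most accessible start per length was PTGER4, at 39.0 and 37.8 CPM per kb, followed by PTGS2 at 33.4 and 33.1 CPM per kb. The next 5, PTGES, PTGES3, PTGES2, HPGD and PTGER2, had means from 20.0 down to 15.5 CPM per kb, and neighbours in that order overlapped between the control libraries. PLA2G4A was below them, at 11.6 and 9.31 CPM per kb, and the tallest PTGS1 start was lowest, at 1.99 and 3.40 CPM per kb. A PTGS1 peak centred 0.457 kb past the 5′-most start, at chr9:122370678-122371302, counted as inside the gene by the start-site rule. It had 5.20 and 7.19 CPM per kb in control.

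**Figure D2:**
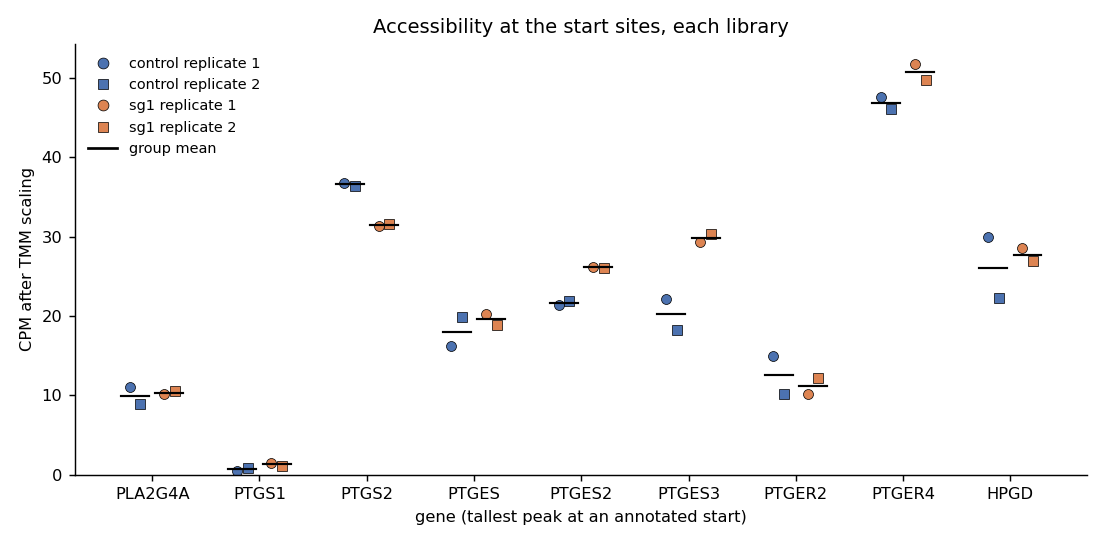
CPM after TMM scaling (vertical axis) of the tallest start-site peak of each gene, with 1 point per library and a bar at the mean of the 2 libraries of each group. Both sg1 points lie below both control points at PTGS2 and above them at PTGS1, PTGES2, PTGES3 and PTGER4, of which PTGES2 and PTGES3 passed the test, while the groups overlap at PLA2G4A, PTGES, PTGER2 and HPGD.

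PLA2G4A, which supplies the arachidonic acid (plus strand, chr1:186828949-186988981), had 8 peaks, all tested, of which 2 were lower and 0 higher. Its start peak at chr1:186828577-186829527 stood at 11.1 and 8.86 CPM in control and 10.2 and 10.53 CPM in sg1. The groups overlapped and the log2 change was 0.04 (95% interval -0.22 to 0.31). Far inside the gene, 129.8 kb from the start, the peak at chr1:186958510-186958916 fell from 3.59 and 1.30 CPM to 0.722 and 0.886 CPM. The change was -1.66 ± 0.35 (SE, adjusted p = 0.00049), and control replicate 1 stood well above the other 3 libraries. A peak 138.9 kb from the start, at chr1:186967606-186968071, fell from 3.40 and 1.76 CPM to 0.925 and 0.988 CPM, a log2 change of -1.46 ± 0.31 (adjusted p = 0.000546). Without control replicate 1 both calls ended, with changes of -0.70 (adjusted p = 0.279) and -0.88 (adjusted p = 0.102).

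PTGS1, the cyclooxygenase most cells express steadily (plus strand, chr9:122370533-122395703), had the most called peaks: 4 higher and 1 lower of 11 tested. The background over all tested peaks was 11.5% higher and 16.8% lower. Counts for single genes rest on few peaks, and for none of the members was the count tested against these shares. A peak 6.09 kb inside the gene, at chr9:122376410-122376831, had 6 and 2 counts in control and 80 and 57 counts in sg1. In CPM this was 0.291 and 0.1302 against 1.81 and 1.44, and both sg1 libraries lay far above both controls. The fitted log2 change was 2.85 ± 0.48 (adjusted p = 1.99e-05). This peak, 1 of the 4 higher ones, reached the filter limit in the sg1 libraries only, so it was tested because it is high there. With no filter the quasi-likelihood test gave an adjusted p of 1.07e-05, but from the same counts, so this adds no support. A neighbouring peak at chr9:122376162-122376334 had 4 and 2 counts in control and 27 and 11 in sg1, too few to test.

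Peaks at either edge of the PTGS1 window also rose. The peak 9.42 kb upstream, at chr9:122360805-122361426, went from 1.99 and 1.76 CPM to 4.04 and 3.98 CPM, a log2 change of 1.09 ± 0.24 (adjusted p = 0.000715). The peak 32.9 kb from the start and beyond the gene, at chr9:122403258-122403656, went from 2.09 and 1.69 CPM to 3.79 and 4.001 CPM, a log2 change of 1.03 ± 0.24 (adjusted p = 0.00141). That peak is also the start of a long noncoding RNA, LOC124902264. The tall peak 13.6 kb inside, at chr9:122383496-122384696, rose by less, from 21.4 and 24.0 CPM to 26.6 and 26.1 CPM, a log2 change of 0.22 ± 0.09 (adjusted p = 0.0489). The 1 lower peak, 24.2 kb inside at chr9:122394580-122394886, fell from 2.33 and 1.95 CPM to 1.31 and 1.06 CPM, a log2 change of -0.86 ± 0.30 (adjusted p = 0.0292).

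The last 2 PTGS1 calls depended on the fit. The 13.6 kb peak lost its call without control replicate 1 (0.13, adjusted p = 0.358), without sg1 replicate 1 (0.22, adjusted p = 0.214) and without sg1 replicate 2 (0.25, adjusted p = 0.140). The 24.2 kb peak lost it without the same 3 libraries, at -0.72 (adjusted p = 0.163), -0.9998 (adjusted p = 0.0818) and -0.70 (adjusted p = 0.237). Both also ended with DESeq2 (adjusted p = 0.194 and 0.183) and with thinning to the shallowest library (adjusted p = 0.0709 and 0.0624). Neither annotated PTGS1 start passed. The taller one, at chr9:122375104-122375371, had 0.534 and 0.912 CPM in control and 1.51 and 1.11 CPM in sg1, a change of 0.90 ± 0.39 (adjusted p = 0.0797), and it passed without control replicate 2 (1.30, adjusted p = 0.0287).

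PTGS2, the inducible cyclooxygenase (minus strand, chr1:186671791-186680423), was slightly less accessible at its start in sg1. The start peak at chr1:186679995-186681094, which the start of the long noncoding RNA PACERR shares, had 36.8 and 36.4 CPM in control and 31.3 and 31.6 CPM in sg1. The means were 36.6 ± 0.277 and 31.5 ± 0.198 CPM (SD, n = 2), and both sg1 libraries lay below both controls. This is 1.16-fold lower, a log2 change of -0.22 ± 0.07 with an adjusted p of 0.0231 by edgeR's quasi-likelihood test. The 250 bases printed above with the TATA box lie within this peak. It passed under 4 of 11 alternatives and kept its direction under all 11, with changes from -0.23 to -0.16 and adjusted p from 0.0228 to 0.211.

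The PTGS2 call ended without control replicate 1 (-0.21, adjusted p = 0.0540), without sg1 replicate 1 (-0.20, adjusted p = 0.211) and without sg1 replicate 2 (-0.21, adjusted p = 0.183). DESeq2 gave -0.21 (adjusted p = 0.116), and scaling by library size alone gave -0.17 (adjusted p = 0.0754). The call also ended with loess offsets (adjusted p = 0.103) and with thinning (adjusted p = 0.0630). The other tested PTGS2 peak, 0.84 kb upstream at chr1:186681138-186681387, had 2.81 and 1.89 CPM in control and 2.19 and 2.91 CPM in sg1, with overlapping groups and a change of 0.09. The third, downstream at chr1:186662889-186663039, had 5 and 11 counts in control and 3 and 1 in sg1 and was too low to test.

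PTGS2 and PLA2G4A are neighbours whose starts face each other, 148.5 kb apart. Between their windows lay a gap of 128.5 kb with 8 peaks that belong to neither gene, 7 of them tested. Of these, 3 were lower in sg1 (42.9%) and 0 higher (0 at an unadjusted p under 0.05). The background over all tested peaks was 16.8% lower and 11.5% higher. Tested peaks from 10 kb to 1 Mb around PTGS2, which take in the gap, were 22.8% lower and 3.96% higher. The gap was not tested against these shares. The peak at chr1:186753285-186753592 fell from 1.99 and 1.95 CPM to 0.384 and 0.557 CPM, a log2 change of -2.07 ± 0.37 (adjusted p = 5.65e-05). The taller peak at chr1:186792805-186793542 fell from 14.3 and 14.2 CPM to 9.48 and 7.82 CPM, a log2 change of -0.72 ± 0.12 (adjusted p = 3.61e-05). Both kept their calls under every alternative run. A low peak at chr1:186708957-186709154 went from 10 and 13 counts to 5 and 8 in libraries of greater depth, a log2 change of -2.03 ± 0.57 (adjusted p = 0.00744). This peak reached the filter limit in the control libraries only, and without it 2 of 6 tested gap peaks were lower. Its call ended without control replicate 2 (-1.62, adjusted p = 0.123), without sg1 replicate 1 (-1.65, adjusted p = 0.211) and without sg1 replicate 2 (-2.47, adjusted p = 0.0752).

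**Figure D3:**
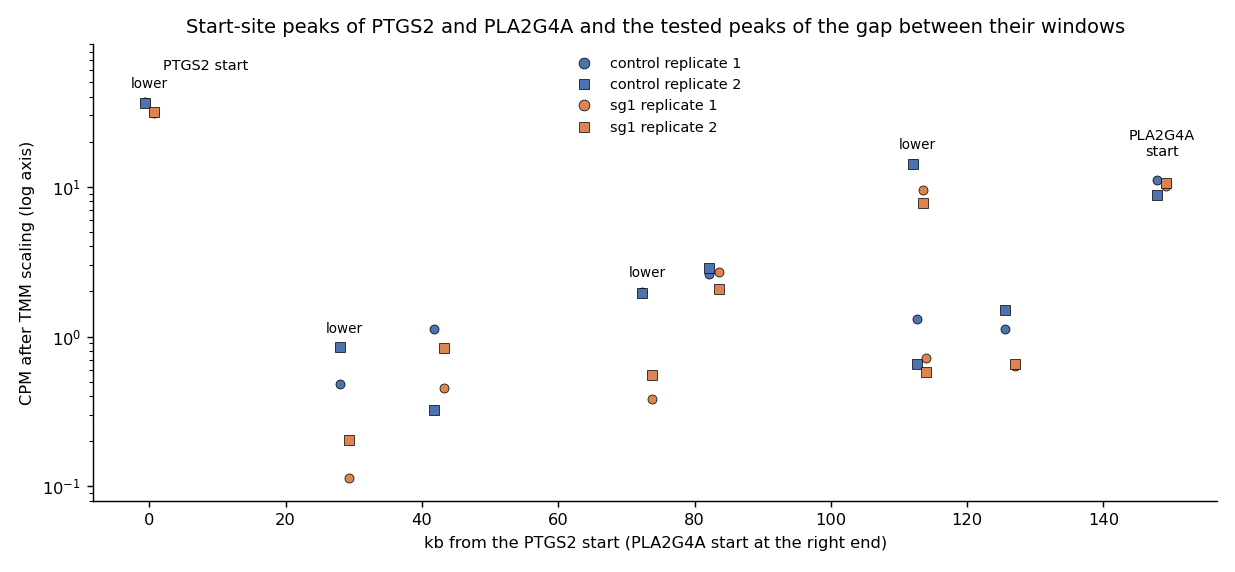
CPM after TMM scaling (log axis) of the PTGS2 start peak, the 7 tested peaks of the gap and the PLA2G4A start peak, by distance in kb from the PTGS2 start, with 1 point per library. The peaks marked lower passed the adjusted threshold. At each of the 3 in the gap both sg1 points lie below both control points, which adds no support to calls made on the same libraries. The called peak at 28.6 kb reached the filter limit in the control libraries only.

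PTGES, the inducible microsomal prostaglandin E synthase (minus strand, chr9:129738349-129753042), had 2 lower peaks and 1 higher among 9 tested. The strongest decrease was 2.78 kb inside the gene, at chr9:129749965-129750568, where 22.0 and 20.6 CPM in control became 13.7 and 13.7 CPM in sg1. The change was -0.64 ± 0.10 (1.56-fold lower, adjusted p = 4.13e-06), far beyond the spread of either pair. The peak 8.94 kb upstream, at chr9:129761561-129762412, fell from 16.9 and 16.9 CPM to 12.6 and 11.6 CPM, a log2 change of -0.48 ± 0.11 (adjusted p = 0.000758). Both held under all 11 alternatives.

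The PTGES start did not pass the test. At chr9:129752497-129753397 it stood at 16.2 and 19.9 CPM in control and 20.3 and 18.9 CPM in sg1, with overlapping groups and a change of 0.13 (95% interval -0.07 to 0.34). With 1 library left out, the change ran from -0.03 to 0.28, the latter without control replicate 2. The higher peak just past the end of the gene, at chr9:129737587-129738344, had 9.17 and 8.79 CPM in control and 12.3 and 10.6 CPM in sg1, a change of 0.35 ± 0.13 (adjusted p = 0.0435). Leaving out any 1 library ended that call, at 0.38 without control replicate 1, 0.32 without control replicate 2, 0.25 without sg1 replicate 1 and 0.46 without sg1 replicate 2 (adjusted p = 0.0719, 0.0989, 0.391 and 0.0558). DESeq2 (adjusted p = 0.191) and thinning (adjusted p = 0.118) ended it too.

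PTGES2, a membrane-bound synthase (minus strand, chr9:128120693-128128440), was more accessible at its start. The peak at chr9:128127289-128128617, shared with the start of the divergent transcript PTGES2-DT, had 21.5 and 21.9 CPM in control and 26.2 and 26.1 CPM in sg1. The means were 21.7 ± 0.347 and 26.1 ± 0.101 CPM (SD, n = 2), 1.205-fold higher, and the groups did not overlap. The change was 0.27 ± 0.08 (adjusted p = 0.0161). It lost its call without control replicate 1 (0.25, adjusted p = 0.0600), without sg1 replicate 1 (0.28, adjusted p = 0.103) and without sg1 replicate 2 (0.29, adjusted p = 0.0856), and DESeq2 also ended it (0.27, adjusted p = 0.0884). The other 5 PTGES2 peaks, all tested, did not pass. The run printed above extends past the called peak into 1 of these, at chr9:128128651-128128801. The called peak also holds the runs before the other annotated PTGES2 starts, which are not printed.

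PTGES3, a cytosolic synthase also known as the HSP90 co-chaperone p23 (minus strand, chr12:56663349-56688284), had the largest called change at a start site. Its start peak at chr12:56687843-56688988 rose from 22.2 and 18.2 CPM to 29.3 and 30.3 CPM. The means were 20.2 ± 2.79 and 29.8 ± 0.721 CPM (SD, n = 2), 1.46-fold higher. The change was 0.55 ± 0.09 (adjusted p = 1.46e-05) and held under all 11 alternatives. None of the other 4 tested peaks of PTGES3 passed, and 2 of them reached the filter limit in the sg1 libraries only. An untested peak downstream, at chr12:56662218-56662399, had 1 and 1 counts in control and 25 and 10 in sg1.

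Of 17 tested peaks at the receptor genes, 0 were lower and 1 was higher (5.88%), where the background was 16.8% lower and 11.5% higher, a difference that was not tested. EP2 (PTGER2, plus strand, chr14:52314312-52328598) had 5 tested peaks and 0 calls, against 0 lower and 1 higher of 12 for EP4. Its start peak at chr14:52313769-52314578 had 14.999 and 10.2 CPM in control and 10.2 and 12.3 CPM in sg1, with overlapping groups and a change of -0.19 (95% interval -0.46 to 0.09, adjusted p = 0.321). Control replicate 1 was the highest library, and control replicate 2 was level with sg1 replicate 1. With 1 library left out, the change ran from -0.42 (without control replicate 2) to 0.14, so its direction depended on the libraries kept.

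EP4 (PTGER4, plus strand, chr5:40679915-40746800) had the tallest start of the 9 genes, at chr5:40678974-40680192. It stood at 47.6 and 46.0 CPM in control and 51.7 and 49.7 CPM in sg1. Both sg1 libraries lay above both controls, a log2 change of 0.11 (95% interval -0.02 to 0.25, adjusted p = 0.203). The called peak of its window, at chr5:40755033-40756321, is the start of the neighbouring gene TTC33. It rose from 27.2 and 29.9 CPM to 34.2 and 32.7 CPM, a log2 change of 0.24 ± 0.08 (adjusted p = 0.0224). That call ended without control replicate 1 (0.16, adjusted p = 0.189), without sg1 replicate 1 (0.22, adjusted p = 0.183) and without sg1 replicate 2 (0.28, adjusted p = 0.0591), as well as with DESeq2 (adjusted p = 0.106) and thinning (adjusted p = 0.0510).

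HPGD, which inactivates prostaglandin E2 (minus strand, chr4:174490175-174522893), had 2 lower peaks inside the gene among 5 tested, and its start did not pass. The peak 19.6 kb from the start, at chr4:174503144-174503400, fell from 3.20 and 2.67 CPM to 1.42 and 1.44 CPM, a log2 change of -1.04 ± 0.27 (2.06-fold lower, adjusted p = 0.00305), and passed under all 11 alternatives. The adjacent peak at chr4:174503467-174503634 went from 12 and 15 counts to 12 and 11, which in CPM is 0.583 and 0.977 against 0.271 and 0.279. Its change was -1.46 ± 0.51 (adjusted p = 0.0287). It reached the filter limit in the control libraries only, so it was tested because it is high there. The call ended without control replicate 2 (-1.08, adjusted p = 0.243), without sg1 replicate 1 (-1.43, adjusted p = 0.214) and without sg1 replicate 2 (-1.47, adjusted p = 0.199), and with DESeq2 (adjusted p = 0.201) and thinning (adjusted p = 0.166).

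The HPGD start peak at chr4:174521787-174523391, shared with the start of LOC105377548, had 29.95 and 22.3 CPM in control and 28.5 and 26.9 CPM in sg1. The groups overlapped, with a change of 0.07 (95% interval -0.12 to 0.26). With 1 library left out, the change ran from -0.11 to 0.31 (the latter without control replicate 1), so its direction depended on the libraries kept.

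**Figure D4:**
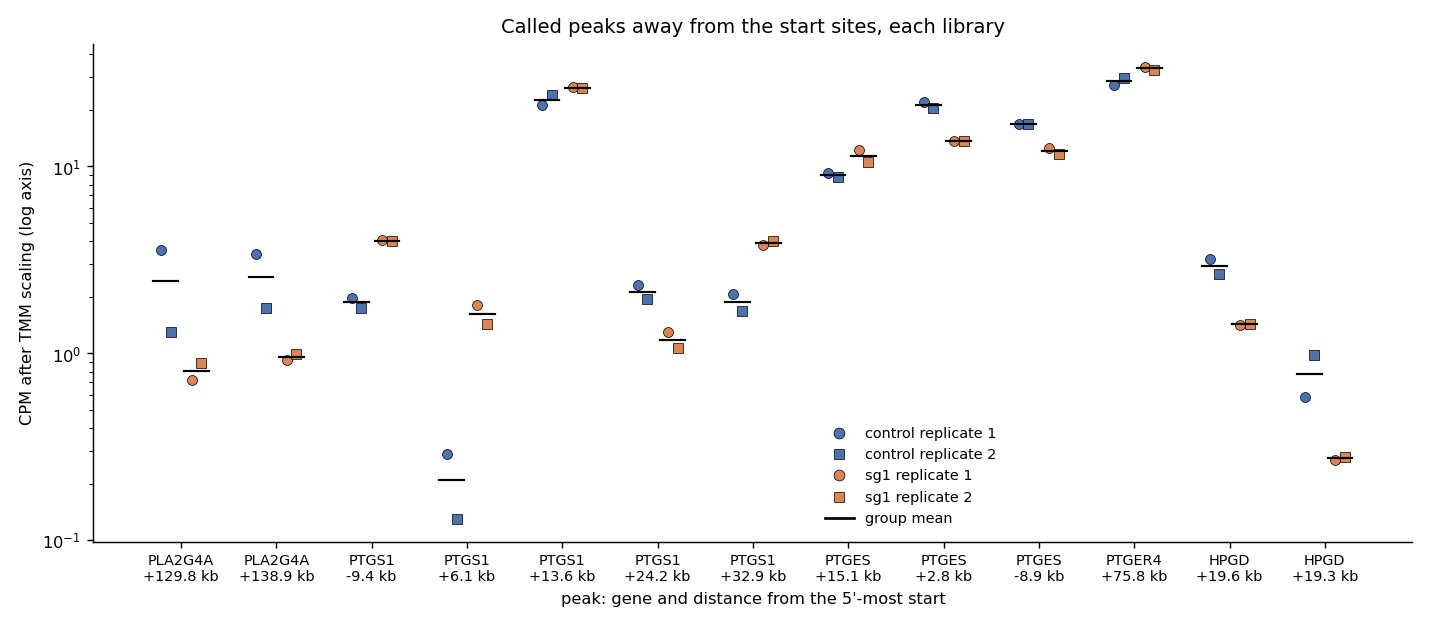
CPM after TMM scaling (log axis) of the 13 called member peaks that lie off the start sites of these genes, by gene and distance from the 5′-most start, with 1 point per library and a bar at each group mean. The 2 groups do not overlap at any of the 13, which adds no support, because these peaks were chosen by calls on the same libraries. The 2 control libraries lie far apart at the PLA2G4A peaks.

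Of the 16 called member peaks, 7 kept their call and direction under all 11 alternatives run on peaks: 3 lower (both PTGES peaks and the HPGD peak at 19.6 kb) and 4 higher (the PTGES3 start and the PTGS1 peaks at 9.42, 6.09 and 32.9 kb). Of these, the PTGS1 peak at 6.09 kb was tested only because it is high in sg1, so its calls add no support. DESeq2 tested 61 of the members and called 5 lower and 4 higher, where its background was 10.4% lower and 4.93% higher.

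Summing all counts of a gene's window gave 1 value per gene. By this measure PLA2G4A, PTGS2 and PTGES were lower in sg1, PTGES3 was higher, and the other 5 members did not pass. The background over 18545 protein-coding genes was 26.4% lower and 24.2% higher, and the median log2 change was -0.09 for the members and 0.01 for all genes. PTGS2 went from 40.3 and 39.7 CPM to 33.2 and 33.9 CPM, a log2 change of -0.26 ± 0.07 (adjusted p = 0.00179), and passed under all 13 alternatives run on windows. Its start peak held 92.5% of the counts in that window, so this value is not independent of the start peak.

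PTGES fell from 79.7 and 83.5 CPM to 72.1 and 67.1 CPM, a log2 change of -0.23 ± 0.05 (adjusted p = 3.52e-05), and PTGES3 rose from 25.2 and 21.5 CPM to 32.8 and 33.7 CPM, a log2 change of 0.50 ± 0.09 (adjusted p = 3.41e-08). Both of these also passed under all 13. PLA2G4A fell from 29.2 and 22.3 CPM to 20.7 and 21.3 CPM, a log2 change of -0.31 ± 0.09 (adjusted p = 0.00259). That call ended without control replicate 1 (-0.09, adjusted p = 0.563) and without sg1 replicate 1 (-0.28, adjusted p = 0.0629). Without control replicate 2, the changes were 0.15 at PTGS1, -0.28 at PTGER2 and -0.22 at HPGD. Without control replicate 1 they were 0.006, 0.02 and 0.08, so the direction at PTGER2 and HPGD depended on the control kept.

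The surrounding chromosome segments differed between the genes. Tested peaks from 10 kb to 1 Mb on either side had a median log2 change of -0.25 around PLA2G4A, where 26.9% were lower and 4.30% higher, and of -0.21 around PTGS2, which shares most of that segment. Around PTGER4 the median was -0.23 and around PTGER2 -0.23, while it was 0.35 around PTGES3, where 7.01% were lower and 27.3% higher. It was -0.08 at PTGS1, 0.10 at PTGES, 0.08 at PTGES2 and -0.02 at HPGD. By the sign of these medians, the called starts of PTGS2, PTGES2 and PTGES3 changed in the direction of their segments. So did the lower peaks of PLA2G4A and PTGS1 and the higher PTGES peak. The medians around PTGS1, PTGES and PTGES2 were small, however. The HPGD segment, with 15.5% lower and 10.7% higher, was near the 16.8% and 11.5% of all tested peaks and had no clear direction. The lower PTGES peaks and the higher peaks of PTGS1 and PTGER4 changed against theirs. The part of these segment-wide values in the members' changes was not tested.

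**Figure D5:**
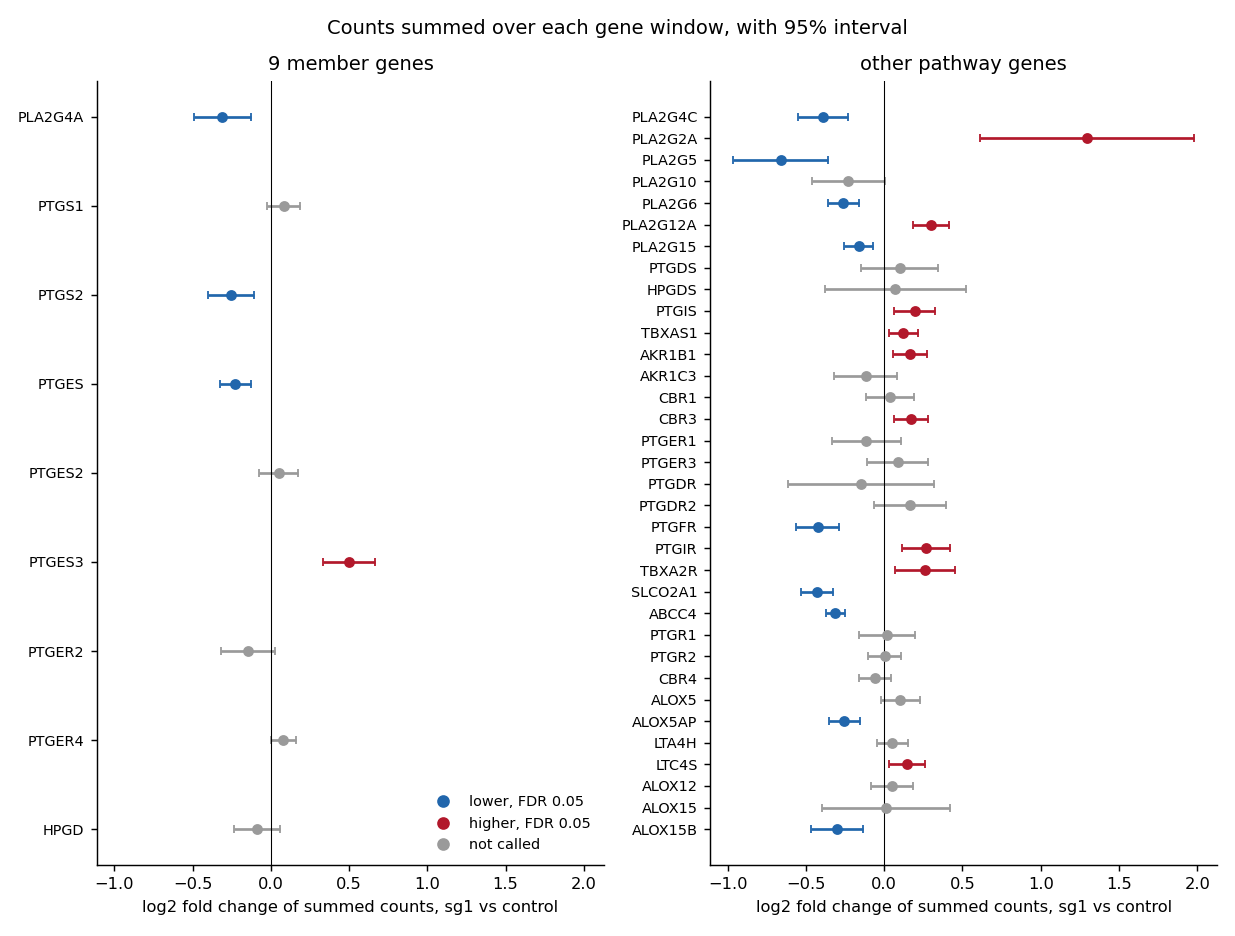
Log2 fold change of counts summed over each gene window (horizontal axis), sg1 against control, for the 9 member genes (left) and 34 tested genes of the wider pathway (right). Bars are 95% intervals, blue and red mark genes past the adjusted threshold, and both directions occur in each panel.

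The wider eicosanoid pathway was read from a list of 35 further genes, 34 of them tested. By summed windows 9 fell and 9 rose (26.5% each, near the background of 26.4% lower and 24.2% higher), the median log2 change was 0.03, and of their 262 tested peaks 18.7% were lower and 14.1% higher. Of the 7 other phospholipases tested, 4 were lower and 2 higher: PLA2G6 went from 84.2 and 78.6 CPM to 67.6 and 68.6 CPM (-0.26 ± 0.05, adjusted p = 1.58e-06), and PLA2G12A from 48.7 and 48.0 CPM to 60.1 and 59.0 CPM (0.30 ± 0.06, adjusted p = 3.76e-06). PLA2G2A, a secreted phospholipase with a single low peak, rose by 1.30 ± 0.35 (adjusted p = 0.000724) and lost its call without control replicate 1 (0.94, adjusted p = 0.0716). Of the 5 transport and breakdown genes, 2 were lower and 0 higher, and these were the prostaglandin transporter SLCO2A1 (-0.43 ± 0.05, adjusted p = 1.43e-15) and the exporter ABCC4 (-0.31 ± 0.03, adjusted p = 2.23e-22). In both, each sg1 library lay below each control: SLCO2A1 had 84.6 and 84.1 CPM against 63.6 and 61.6 CPM.

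Of the 8 other prostanoid synthases and reductases, 0 were lower and 4 higher, among them CBR3, a carbonyl reductase (0.17 ± 0.05, adjusted p = 0.00541). Of the 7 other prostanoid receptors, 1 was lower and 2 higher: the prostaglandin F receptor PTGFR fell by 0.43 ± 0.07 (adjusted p = 8.62e-09) and the prostacyclin receptor PTGIR rose by 0.27 ± 0.08 (adjusted p = 0.0016). The call of CBR3 ended without control replicate 1 (0.10, adjusted p = 0.227) and without sg1 replicate 2 (0.14, adjusted p = 0.127), and that of PTGIR without sg1 replicate 2 (0.21, adjusted p = 0.110). The leukotriene branch had 2 genes lower and 1 higher of 7. These groups are small, and their shares were not tested against the background.

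The windows most like PTGS2 across the 4 libraries, by Euclidean distance of centred log2 CPM among 15472 candidate genes, were NINJ1 (distance 0.00592), RANGAP1 (0.0107) and VWA2 (0.0121). NINJ1 had 115.8 and 114.6 CPM in control and 95.7 and 97.8 CPM in sg1. With 4 libraries in 2 groups, this likeness describes little beyond a similar difference between the groups.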

How the data were processed

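ATAC-seq was made from 4 LM2 libraries, 2 control and 2 sg1. The deposited table gives raw counts per peak, made by the authors with featureCounts 1.6.0 in single-end mode per the file headers. Per the submitters' processing notes, Bowtie2, MACS2 2.2.4, Trimmomatic 0.39, deepTools 3.1.3, SAMtools and DESeq2 1.32 were also used. The build and the peak-merging rule were not given in the sources used here; peaks were placed on RefSeq genes of GRCh38.p14. A start-site peak overlaps the 300-base RefSeq promoter entry of a gene, and distances run from the peak centre to the 5′-most start.

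Tests used edgeR 4.0.16 under R 4.3.3: low peaks were removed by filterByExpr, libraries scaled by TMM and groups compared by quasi-likelihood F tests, with Benjamini-Hochberg adjustment over 184717 peaks or 18545 gene windows at 0.05. Windows of neighbouring genes can share peaks. The SE of a log2 fold change is its size over the square root of F. The 109 peaks in the first 250 kb of chromosome 1, with 17.9% to 25.4% of the counts of a library, were left out. An exact permutation test of 2 against 2 libraries cannot go below p = 0.333 and was not used. The script was tested on simulated data. Python 3.11.15, pandas 2.3.3, scipy 1.17.1 and matplotlib 3.10.9 served for the rest.

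Members and gene lists were chosen with earlier results of these data known. Named were, per member, the tallest start-site peak and the called peaks (up to 6 by smallest p, or else the peak with the smallest p), called peaks between PTGS2 and PLA2G4A, per direction 4 pathway genes with the smallest p, and the 3 windows most like PTGS2. Other peaks, such as those too low to test, and the marker genes named were chosen after their values were seen. The result of 1 marker gene is not reported here. Alternatives were DESeq2 1.42.0, library size scaling, cyclic loess offsets (limma 3.58.1), no filter, thinning to the shallowest library, the chromosome 1 start kept, a replicate block, each library left out, and windows of 1 and 50 kb.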

Additional observations from a re-analysis of the deposited data

How the results depend on the processing

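No called value of a member, of the gap between PTGS2 and PLA2G4A or of a named pathway gene reversed its direction under any alternative. DESeq2 called 17866 peaks lower and 8475 higher in all, and 5 member peaks lower and 4 higher. Thinning to the shallowest library left 13759 higher peaks in all, with 5 member peaks lower and 5 higher. Windows of 1 kb held 5 higher member peaks, and windows of 50 kb held 24 lower and 24 higher of 139 tested (17.3% each). By summed counts, 3 member genes were higher with library size scaling and 2 with loess offsets, with windows of 1 kb and with windows of 50 kb. With 1 library left out, where the lone library of its group is assumed to vary like the other group, all peaks ranged from 18880 to 29467 lower and from 11148 to 20243 higher. Member peaks ranged from 5 to 9 lower and from 4 to 10 higher, member genes from 2 to 5 lower and from 1 to 2 higher, and further pathway genes from 8 to 9 lower and from 4 to 6 higher. The cause of these moves was not tested, and some of the alternatives use fewer samples, counts or peaks. Same-numbered replicates did not deviate together (correlation 0.000131 over 184717 peaks). A fit with the replicate block called 30361 peaks lower and 21215 higher, with 8 member peaks lower and 7 higher. Among the member peaks named, the block ended only the call of the PTGS1 peak at 13.6 kb (adjusted p = 0.0506). The median over all tested peaks stayed between 0.00133 and 0.0636 under these scalings. Depth limits low peaks most: the control libraries had medians of 35 and 26 counts per peak, against 73 and 64 in sg1.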
